A study of Homo sapiens with 6 samples.

Results

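Expression of 38 genes of the retinoid pathway was compared between SUM149 breast cancer cells transfected with siRNA against TIG1 and cells transfected with control siRNA. The genes cover uptake and transport of retinol, its storage, its oxidation to retinoic acid, the breakdown and binding of retinoic acid, its nuclear receptors, their cofactors and a pair of retinoid-responsive genes. They were taken by name from the annotation of the array, and each was represented by the probe set with the highest mean signal among those paired with its symbol alone. Of the 38 genes, 33 had such a probe set, out of 19775 genes tested. CRABP1, RDH14, DHRS4, NCOR1 and NCOA3 had none and were not analysed here.

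Retinol reaches cells bound to the carrier RBP4 and can enter through the membrane receptor STRA6. Inside the cell it is either esterified for storage, mainly by LRAT, or oxidised to retinal by retinol dehydrogenases and then to retinoic acid by retinaldehyde dehydrogenases of the ALDH1A family. Retinoic acid binds nuclear receptors of the RAR family, which pair with RXR receptors on DNA and exchange corepressors for coactivators, and enzymes of the CYP26 family degrade it. TIG1 (RARRES1) is itself a gene induced by retinoids in epithelial cells, first found with the synthetic retinoid tazarotene.

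SUM149 is a human cell line from an inflammatory breast cancer. Cells of both groups were kept in Ham's F-12 medium to which serum (FBS, 5%), insulin (5 µg/ml) and the glucocorticoid hydrocortisone (1 µg/ml) had been added, and were transfected with oligofectamine at 200 nmol/L siRNA. The siTIG1 group received the ON-TARGET Plus pool against TIG1 and the siControl group the siGENOME non-targeting pool, so the target and the product line of the siRNA cannot be told apart. Each group had 3 Affymetrix arrays of total RNA, and nothing in the labels says that these came from separate cultures. The p-values then reflect the spread of these arrays alone, part or all of which may be technical.

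TIG1 averaged lower in the siTIG1 group on all 3 of its probe sets, but none passed the test. On the RARRES1 probe set with the highest mean the arrays read 12.69, 11.95 and 11.87 in siTIG1 cells, against 12.65, 12.61 and 13.74 in siControl cells (log2 signal). The array labelled siTIG1 replicate 1 thus lay within the control range on this probe set, and siControl replicate 3 lay far above both other controls. The log2 difference was -0.83 ± 0.36 (SE, limma adjusted p = 0.25), and the 3 RARRES1 probe sets gave exact 2-sided permutation p-values of 0.1, 0.1 and 0.3. With 3 arrays on each side no such test can go below 0.1. Across all probe sets siControl replicate 3 correlated with the other controls at 0.985, while these correlated with each other at 0.998. The siTIG1 arrays correlated with those other controls at 0.992 to 0.993, so they were closer to them than siControl replicate 3 was. The 11 measured epithelial markers had mean signals of 8.50 to 14.36 in siTIG1 cells and 8.47 to 14.49 in siControl cells. Of these markers 2 rose and 0 fell (18.2% higher, beside 3.15% of all genes). CDH3, the P-cadherin of basal epithelium, averaged 13.36 in siTIG1 cells and 12.87 in siControl cells, higher by 0.49 ± 0.05 (log2, SE, limma adjusted p = 0.0072). KRT19, a keratin of simple epithelium, averaged 13.56 in siTIG1 cells and 12.56 in siControl cells, higher by 1.003 ± 0.15 (log2, SE, limma adjusted p = 0.016). Of the marker genes of other cell types, 0 of 8 for leukocytes, 0 of 7 for fibroblasts and 0 of 6 for endothelium passed in either direction. Of all genes 7.32% passed, and at that share lists this short can hold no call. In siTIG1 cells the mean signals of these lists ran from 6.185 to 8.89, 5.01 to 10.05 and 5.82 to 9.35. When siControl replicate 3 was left out, 5 epithelial markers were higher and 2 lower (45.5% and 18.2%, beside 12.3% and 14.9% of all genes). In that fit CD14 of the leukocyte list was higher by 0.80 (log2, limma adjusted p = 1.6e-05). At an adjusted p under 0.05 by limma, 623 genes were higher (3.15% of those tested) and 825 lower (4.17%) in the siTIG1 group, 7.32% together.

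Of the 33 measured retinoid genes, 8 rose and 3 fell in siTIG1 cells, and 22 did not pass. The rises were those of STRA6, RDH10, DHRS3, ALDH1A1, NRIP1, NCOA2, RAI14 and TGM2, and the falls those of LRAT, RDH13 and ALDH1A3. The risen genes made up 24.2% of the retinoid genes, beside 3.15% of all genes, and the fallen ones 9.09%, beside 4.17%. The list was chosen with earlier results of these data known. The shares given here and below therefore do not test whether retinoid genes moved more often than others. The median log2 difference, siTIG1 minus siControl, was 0.06 over the retinoid genes and 0.02 over all genes. Sizes among the 11 called genes ran from 0.41 to 1.24 on the log2 scale, with 4 genes at 2-fold or more.

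Without siControl replicate 3, all 11 calls held and CRABP2 and RXRA were called as higher and CYP26B1 as lower, giving 10 rises (30.3%, beside 12.3% of all genes) and 4 falls (12.1%, beside 14.9%). With any other single array left out, 0 to 3 retinoid genes rose and 1 to 3 fell, while 222 to 600 of all genes were called (1.12% to 3.03%). In 15 of the 33 genes all 3 siTIG1 arrays lay above all 3 siControl arrays (45.5%, beside 16.6% of all genes), and in 4 they lay below (12.1%, beside 15.4%). Array signals average over all cells, so fewer cells making a transcript and less of it per cell cannot be told apart. A measure of RNA integrity, the signal of the 3' minus that of the 5' ACTB control probe set, which increases when RNA degrades, also moved with the groups. It was 2.25 ± 0.10 on siTIG1 arrays and 2.85 ± 0.31 on siControl arrays (log2, SD, n = 3 each, exact 2-sided permutation p = 0.1), and its part in the results was not tested. The same measure for GAPDH was 0.463 ± 0.0065 on siTIG1 arrays and 0.504 ± 0.060 on siControl arrays (log2, SD, n = 3 each, exact 2-sided permutation p = 0.2). The GAPDH values overlapped between the groups, and siControl replicate 3 was the highest on both measures.

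**Figure D1:**
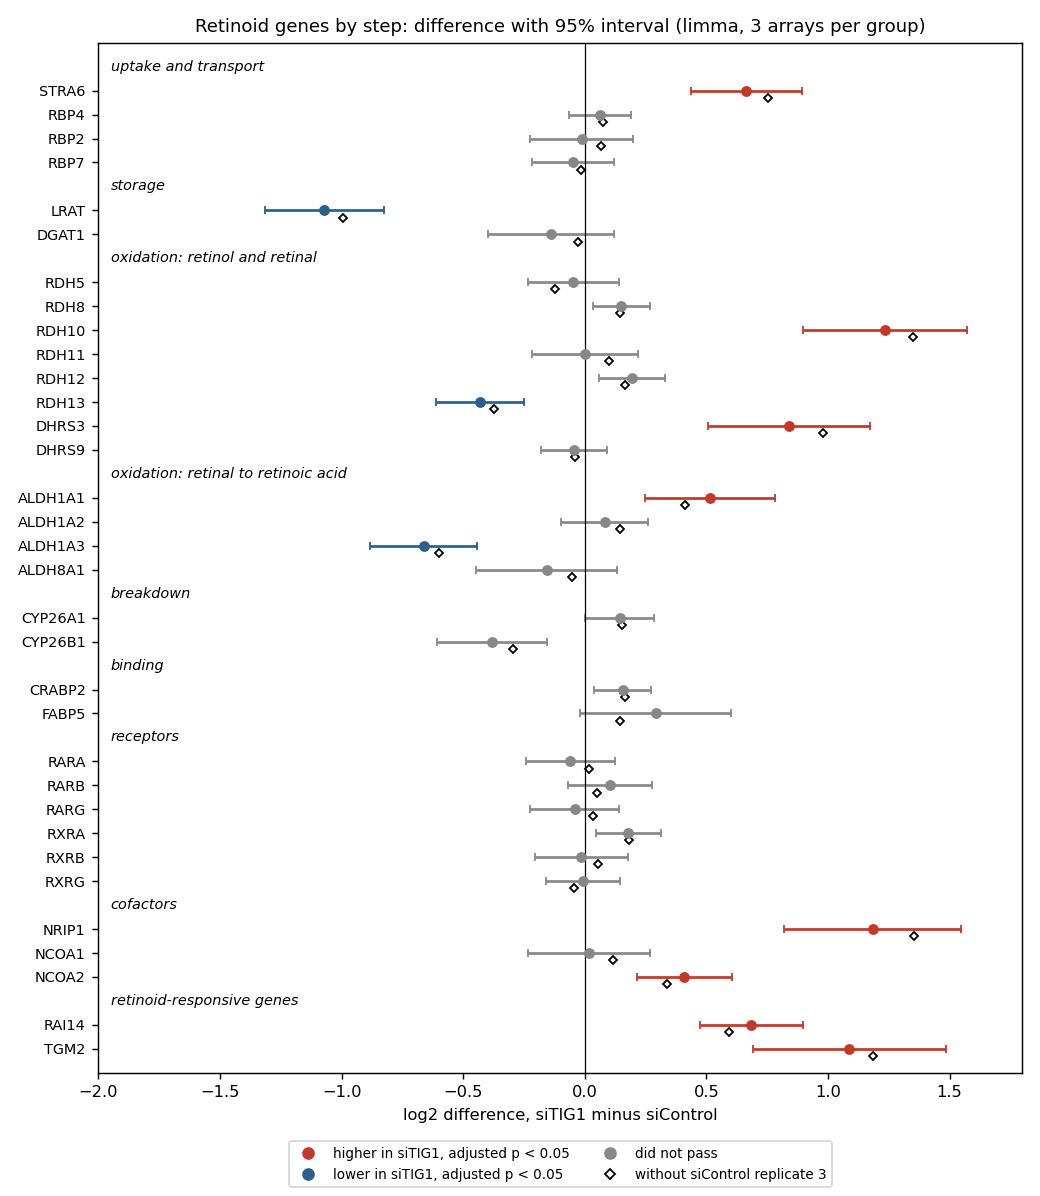
Log2 difference in signal, siTIG1 minus siControl, for the 33 measured retinoid genes, grouped by step from uptake to retinoid-responsive genes. Filled points with bars give the limma estimate with its 95% interval from 3 arrays per group, red for the 8 genes called higher, blue for the 3 called lower and grey for the 22 that did not pass; open diamonds give the difference without siControl replicate 3, which keeps the sign of every called gene.

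Among the genes of retinol uptake, transport and storage STRA6 rose, LRAT fell and the other 4 measured did not pass. STRA6, the receptor that takes up retinol from RBP4, read 10.30, 10.13 and 10.17 on the siTIG1 arrays, against 9.46, 9.43 and 9.72 on the siControl arrays. The groups did not overlap, and siControl replicate 3 was the highest control. STRA6 rose by 0.66 ± 0.09 (log2 difference, SE, limma adjusted p = 0.014), 1.58-fold, and all 3 of its probe sets rose, by 0.49 to 0.66. The call was lost when any array other than siControl replicate 3 was left out (adjusted p of 0.054 to 0.077).

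LRAT, the acyltransferase that makes retinyl esters, read 6.91, 6.75 and 7.04 in siTIG1 cells, against 7.87, 7.92 and 8.12 in siControl cells. The lowest control lay 0.82 above the highest siTIG1 array on the log2 scale, wider than the range within either group. LRAT fell by 1.07 ± 0.10 (log2 difference, SE, limma adjusted p = 0.0045), 2.10-fold, and was the 1 called gene of the 11 whose call held with any single array left out (highest adjusted p = 0.033). The signals of LRAT are low and are not shown to lie above background, and the gene is not among those tested when genes with a low mean signal are left out.

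The other storage enzyme, DGAT1, which can also esterify retinol besides making triglycerides, was at -0.14 ± 0.11 (SE, limma adjusted p = 0.52). The carriers RBP4, of plasma, RBP2, of the intestine, and RBP7 did not pass and had log2 differences of 0.06, -0.01 and -0.05. RBP4 did not overlap between the groups, with 7.85 on its lowest siTIG1 array, against 7.84 on its highest siControl array.

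**Figure D2:**
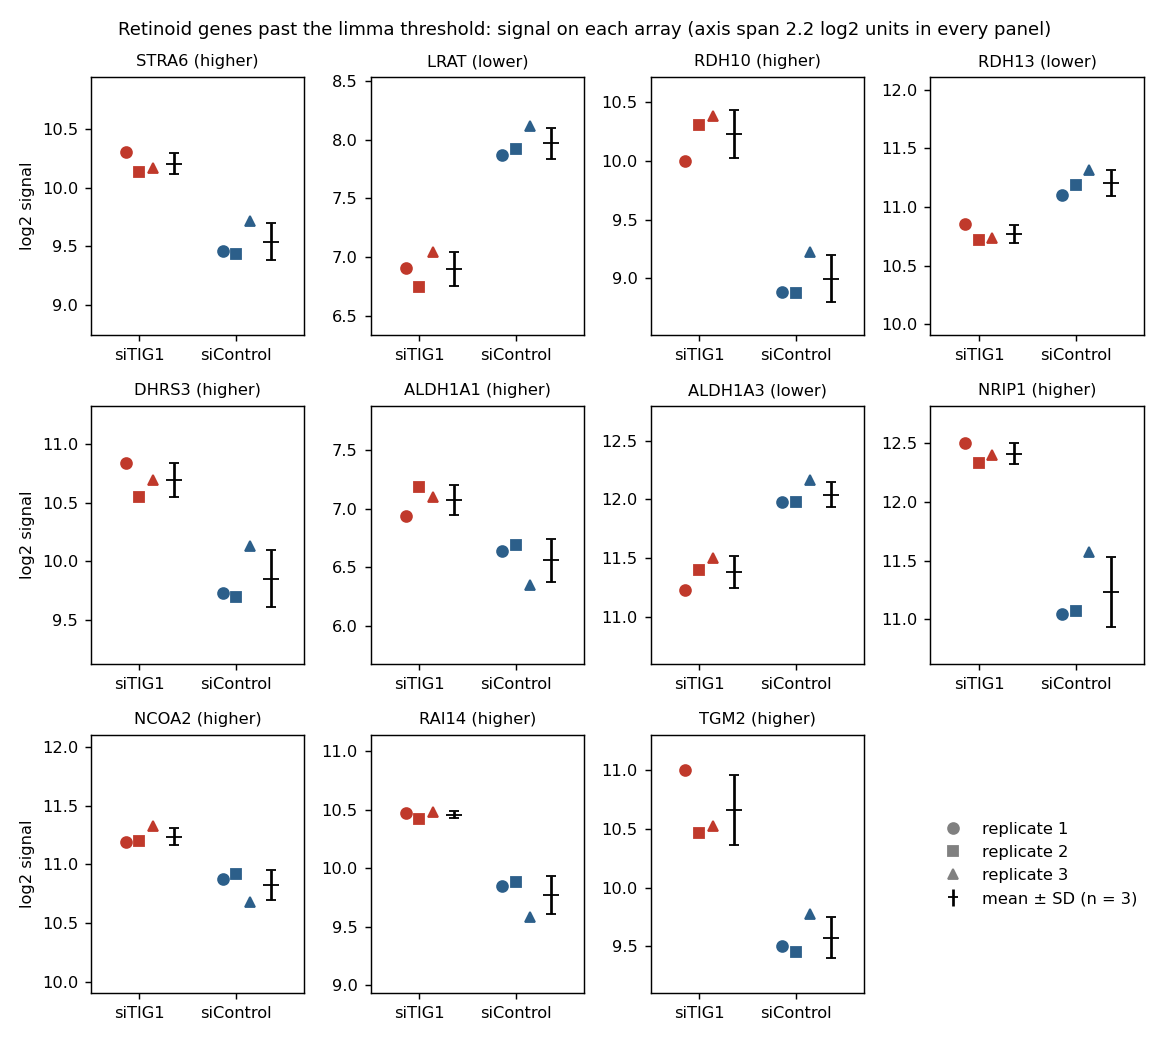
Log2 signal on each array for the 11 retinoid genes past the limma threshold, siTIG1 arrays left in red and siControl arrays right in blue, with marker shapes for replicates 1 to 3 and black bars for the mean ± SD (n = 3). All panels span the same number of log2 units; the groups overlap in none of them, and siControl replicate 3 (blue triangle) is the highest or the lowest control in each.

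Among the enzymes that interconvert retinol and retinal, 2 rose, 1 fell and 5 of the 8 measured did not pass. Of all genes 3.15% rose and 4.17% fell. RDH10, the retinol dehydrogenase that makes retinal for retinoic acid synthesis in the embryo, read 9.998, 10.31 and 10.39 in siTIG1 cells, against 8.88, 8.88 and 9.23 in siControl cells, with a gap of 0.77 between the groups. RDH10 rose by 1.24 ± 0.14 (log2 difference, SE, limma adjusted p = 0.0075), 2.35-fold. Of its 4 probe sets 3 rose, by 0.58 to 1.24, and the fourth, with a mean signal of 4.73 in both groups, showed no difference (0.00). The call of RDH10 was lost without siTIG1 replicate 2 (adjusted p = 0.059).

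DHRS3, a reductase that turns retinal back into retinol and is known as a retinoic acid-induced gene, rose as well. It read 10.84, 10.55 and 10.69 on the siTIG1 arrays, against 9.73, 9.69 and 10.13 on the siControl arrays. The difference was 0.84 ± 0.14 on the log2 scale (SE, limma adjusted p = 0.020), 1.79-fold, and 0.98 without siControl replicate 3. RDH10 and DHRS3, which act in opposite directions of the same step, were thus both higher in siTIG1 cells. Leaving out any array but siControl replicate 3 ended the call of DHRS3 (adjusted p of 0.072 to 0.104).

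RDH13, a dehydrogenase located in mitochondria, was at 10.86, 10.72 and 10.74 in siTIG1 cells, against 11.10, 11.19 and 11.32 in siControl cells. It fell by 0.43 ± 0.08 (log2 difference, SE, limma adjusted p = 0.025), and all 4 of its probe sets were negative, from -1.01 to -0.11, with 2 past the threshold. The chosen probe set of RDH13 lies between these extremes, so the size of the fall is uncertain. The RDH13 call held without siControl replicate 1 (adjusted p = 0.048) or replicate 3, and was lost without siControl replicate 2 (0.081) and without siTIG1 replicates 1, 2 or 3 (0.068, 0.13 and 0.12).

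The other dehydrogenases of this step showed little. RDH11, a widely expressed microsomal enzyme, read 12.95, 12.99 and 12.97 in siTIG1 cells, against 12.89, 12.84 and 13.16 in siControl cells, a log2 difference of 0.00 with a 95% interval of -0.22 to 0.22. The enzymes of the visual cycle RDH5, RDH8 and RDH12 differed by -0.05, 0.15 and 0.19, and DHRS9 by -0.04. RDH8 and RDH12 were higher on every siTIG1 array than on every siControl array, but their adjusted p-values were 0.14 and 0.11.

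In the oxidation of retinal to retinoic acid, the measured ALDH1A enzymes did not move together. ALDH1A3, a retinaldehyde dehydrogenase that also accounts for much of the aldehyde dehydrogenase activity used to mark breast cancer stem cells, read 11.23, 11.40 and 11.50 in siTIG1 cells, against 11.98, 11.98 and 12.16 in siControl cells. The groups were 0.48 apart at their nearest arrays. ALDH1A3 fell by 0.66 ± 0.09 (log2 difference, SE, limma adjusted p = 0.013), 1.58-fold. Its second probe set was at -0.90 ± 0.31 and did not pass (limma adjusted p = 0.18). The call of ALDH1A3 was lost without siTIG1 replicate 2 (adjusted p = 0.074) and when the mean of both probe sets was used (0.064).

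ALDH1A1, the family member that is high in liver and in many stem cells, went the other way. Its signal was low, at 6.94, 7.18 and 7.09 in siTIG1 cells, against 6.63, 6.69 and 6.35 in siControl cells, so it is not shown to lie above background. ALDH1A1 rose by 0.51 ± 0.11 (log2 difference, SE, limma adjusted p = 0.045), close to the threshold. The call was lost under quantile normalization and median centring (adjusted p of 0.056 and 0.058) and when p was adjusted over all probe sets (0.050), and without any array other than siControl replicate 3 (0.078 to 0.18). ALDH1A2, the main enzyme of the step in the embryo, was at 0.08 and ALDH8A1, which can oxidise 9-cis-retinal, at -0.16, and neither passed.

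Neither of the CYP26 enzymes, which hydroxylate retinoic acid for its removal, passed with all arrays. CYP26A1 read 8.16, 8.17 and 8.05 in siTIG1 cells, against 8.02, 7.93 and 8.001 in siControl cells. The groups lay close together without overlapping, and the log2 difference was 0.14 ± 0.06 (SE, limma adjusted p = 0.22). CYP26B1 read 8.71, 8.54 and 8.54 in siTIG1 cells, against 8.89, 8.89 and 9.15 in siControl cells, which gives -0.38 ± 0.09 on the log2 scale (SE, limma adjusted p = 0.066). Without siControl replicate 3, the highest of the controls, the CYP26B1 difference was -0.29 and passed at a limma adjusted p of 0.0075, as it did with all arrays under median centring (0.047). Its second probe set was at 0.03.

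The intracellular binding proteins CRABP2, which carries retinoic acid to RAR, and FABP5, which can carry it to the receptor PPARD, were both higher on every siTIG1 array but did not pass. CRABP2 read 8.90, 8.89 and 8.94 in siTIG1 cells, against 8.78, 8.71 and 8.77 in siControl cells, and differed by 0.16 ± 0.05 (log2, SE, limma adjusted p = 0.13). FABP5 read 11.41, 11.46 and 11.52 in siTIG1 cells, against 11.32, 11.31 and 10.87 in siControl cells. Its difference of 0.29 ± 0.13 (log2, SE, limma adjusted p = 0.25) was 0.14 without siControl replicate 3, the array on which it was lowest.

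None of the 6 retinoic acid and retinoid X receptor genes passed with all arrays, where 7.32% of all genes did. Their log2 differences lay between -0.06 and 0.18, and the 95% intervals together between -0.24 and 0.32. The signal of RXRG was low, averaging 6.15 in siTIG1 cells and 6.16 in siControl cells, and is not shown to lie above background. RARA, RARB and RARG, which bind all-trans retinoic acid, were at -0.06, 0.10 and -0.04. Of the RXR genes, which encode the shared partners, RXRB and RXRG were both at -0.01. RXRA read 10.73, 10.59 and 10.66 in siTIG1 cells, against 10.45, 10.50 and 10.48 in siControl cells, and was the receptor gene with the largest difference, 0.18 ± 0.06 (log2, SE, limma adjusted p = 0.12). It passed without siControl replicate 3 (limma adjusted p = 0.047).

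RARB and CYP26A1 are textbook targets of retinoic acid, and neither passed the test of expression. Both had mean signals below 8.74, the median over all genes, and are not shown to lie above background. Their upstream sequences hold the letters of a retinoic acid response element, which are shown here. The element was searched on both strands as 2 hexamers in the same orientation with 5 bases between them, a spacing known as DR5. The hexamers allowed were AGGTCA, its variant AGTTCA, its variant GGTTCA and its variant GGGTCA. RefSeq promoter windows of build GRCh38.p14, 250 bases before to 50 after an annotated start, were matched for 27 of the 33 genes (55 windows). RARB and CYP26A1 were the only 2 of these genes with a DR5, which 0.0883% of all 35116 windows hold. Capitals mark the hexamers.
RARB: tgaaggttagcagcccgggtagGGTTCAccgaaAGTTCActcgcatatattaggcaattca
CYP26A1: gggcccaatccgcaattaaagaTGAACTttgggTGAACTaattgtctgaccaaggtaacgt
The RARB stretch lies at chr3:25428188-25428248 on the plus strand, 75 to 15 bases before an annotated start inside the gene. The CYP26A1 stretch lies at chr10:93073781-93073841, also on the plus strand and 112 to 52 bases before the second annotated start, and there the hexamers run on the opposite strand.

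RARB, whose window holds this element, read 8.07, 7.94 and 7.92 in siTIG1 cells, against 7.92, 7.93 and 7.76 in siControl cells, and the groups overlapped. The difference was 0.10 ± 0.07 on the log2 scale (SE, limma adjusted p = 0.46), and the 5 RARB probe sets ranged from -0.01 to 0.10. Single hexamers were common, in 38.6% of all windows and in 21 of the 55 retinoid windows. They were in the windows of 5 of the 8 called genes with a window and of 10 of the 19 other genes with one. A gene can have several windows, so these counts of genes cannot be set against the share of windows. The called genes RDH10, NCOA2 and TGM2 had no window. Examples from called genes are given below with the hexamer in capitals, from STRA6 and NRIP1, which rose, and RDH13, which fell.
STRA6: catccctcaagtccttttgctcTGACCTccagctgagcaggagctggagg
NRIP1: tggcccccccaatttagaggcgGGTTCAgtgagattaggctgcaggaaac
RDH13: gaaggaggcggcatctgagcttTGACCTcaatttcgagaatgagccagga
They lie on the minus strand of GRCh38.p14, at chr15:74212412-74212461 for STRA6, chr21:15065984-15066033 for NRIP1 and chr19:55069630-55069679 for RDH13, all before an annotated start. TGACCT is AGGTCA read on the other strand. A match of letters is a description of the window and does not show that a receptor binds there.

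Among the receptor cofactors 2 of 3 measured genes rose, where 3.15% of all genes did. NRIP1 (RIP140), a corepressor that binds ligand-bound nuclear receptors, read 12.51, 12.33 and 12.40 in siTIG1 cells, against 11.04, 11.07 and 11.57 in siControl cells. The nearest arrays of the groups were 0.76 apart, although the controls ranged over 0.53. NRIP1 rose by 1.18 ± 0.15 (log2 difference, SE, limma adjusted p = 0.010), 2.27-fold, and its second probe set rose by 1.12. Its call was lost without siTIG1 replicate 1, 2 or 3 (adjusted p of 0.056, 0.063 and 0.065) and kept with any single siControl array left out.

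NCOA2, a p160 coactivator of nuclear receptors, read 11.19, 11.20 and 11.33 in siTIG1 cells, against 10.88, 10.92 and 10.68 in siControl cells. It rose by 0.41 ± 0.08 (log2 difference, SE, limma adjusted p = 0.037), the smallest of the called differences. The 3 other probe sets of NCOA2 were at 0.05 to 0.14 and none passed. The NCOA2 call was lost under median centring (adjusted p = 0.051), with a trended robust fit (0.055), with the mean of its probe sets (0.077) and without any array other than siControl replicate 3 (0.069 to 0.16). NCOA1, another p160 coactivator, was at 0.02 ± 0.10 (log2, SE).

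**Figure D3:**
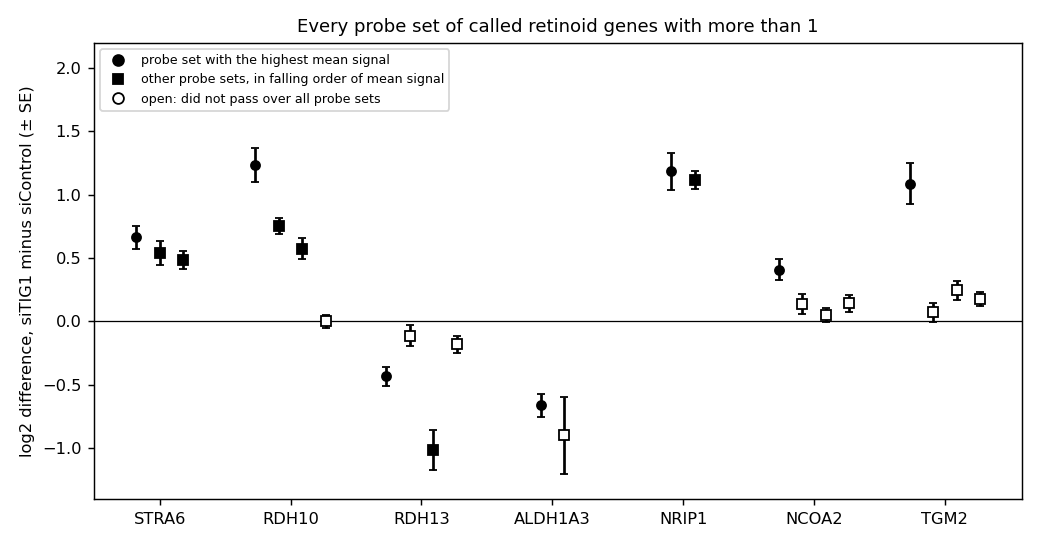
Log2 difference, siTIG1 minus siControl, with its SE for every probe set of the 7 called retinoid genes that have more than 1, from a fit over all probe sets. Circles are the probe set with the highest mean signal and squares the others in falling order of signal, and open symbols did not pass; all probe sets of STRA6 and NRIP1 passed, whereas 1 of 4 passed for NCOA2 and for TGM2.

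Both genes of the retinoid-responsive pair, TGM2 and RAI14, rose. Of 21 measured genes on a separate list of retinoic acid targets, 19 did not pass, and neither did RARB and CYP26A1. The called share of that list was 9.52%, beside 7.32% of all genes. TGM2, the tissue transglutaminase, which crosslinks proteins, read 11.004, 10.46 and 10.52 in siTIG1 cells, against 9.50, 9.45 and 9.77 in siControl cells. Replicate 1 of the siTIG1 group stood highest, and the groups were 0.69 apart. TGM2 rose by 1.09 ± 0.16 (log2 difference, SE, limma adjusted p = 0.016), 2.13-fold, whereas its 3 other probe sets were at 0.07 to 0.24 and did not pass. The call was kept without siTIG1 replicate 1 (adjusted p = 0.034) or siControl replicate 3, and lost without any of the other arrays (0.063 to 0.074).

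RAI14, retinoic acid induced 14, which encodes an actin-associated ankyrin repeat protein, had the narrowest spread of the called genes in siTIG1 cells. It read 10.47, 10.42 and 10.48 there, against 9.85, 9.88 and 9.58 in siControl cells. RAI14 rose by 0.69 ± 0.09 (log2 difference, SE, limma adjusted p = 0.010), 1.61-fold. The call was lost without siTIG1 replicate 1, 2 or 3 (adjusted p of 0.057, 0.066 and 0.070).

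**Figure D4:**
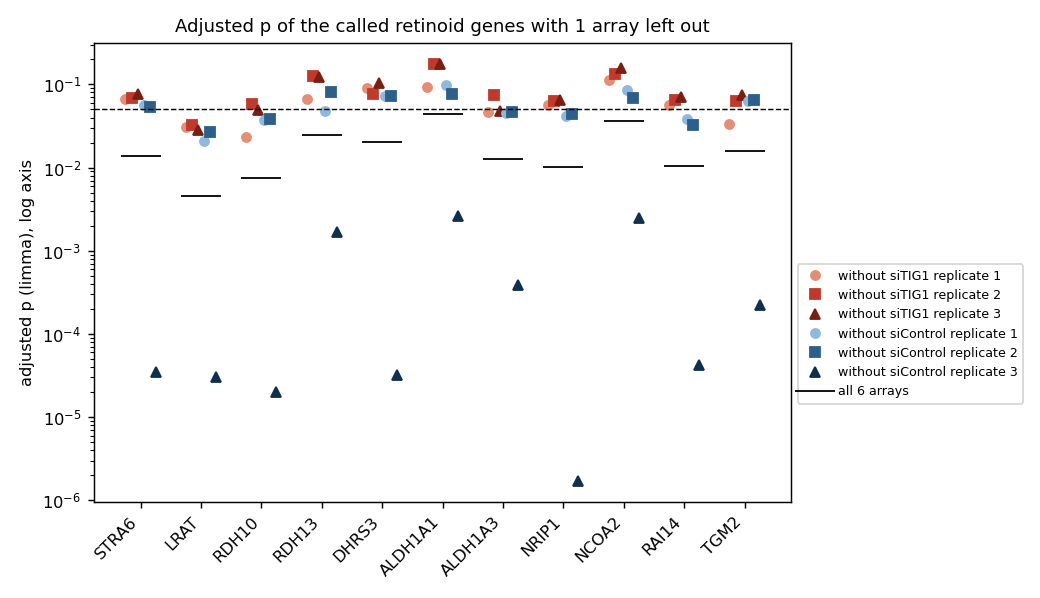
Adjusted p by limma (log axis) of the 11 called retinoid genes with all 6 arrays (black bars) and with each array left out, siTIG1 arrays in red shades and siControl arrays in blue shades; the dashed line is the threshold of 0.05. Leaving out siControl replicate 3 gives the lowest value for every gene, and only LRAT stays below the line throughout.

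The remaining 22 genes, those that did not pass, were mostly close to 0. In 20 of them the log2 difference was under 0.2 in size, the exceptions being CYP26B1 and FABP5, and in 20 the 95% interval lay within 0.5 on either side of 0. The signals of RBP2, RBP7, RDH8, ALDH8A1 and RXRG were low and are not shown to lie above background. A small difference in these genes need not mean an unchanged transcript. The place of siControl replicate 3 varied by gene, and it was above both other controls in 20 of the 33 genes, below both in 8 and between them in 5. Its place was not counted over all genes, so these counts are not shown to be particular to the retinoid genes. Of the 11 called differences, 5 were larger without that array and 6 smaller.

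Other genes of the pathway were taken from lists that leave out the retinoid genes above. These lists were also chosen with earlier results of these data known, so their shares are descriptions. Of 28 further retinoid enzymes and carriers 2 rose and 3 fell (7.14% and 10.7%, beside 3.15% and 4.17% of all genes). SDR16C5, an epidermal retinol dehydrogenase, read 9.34, 9.34 and 9.45 in siTIG1 cells, against 9.98, 10.14 and 10.39 in siControl cells. It fell by 0.79 ± 0.11 (log2 difference, SE, limma adjusted p = 0.013). The keto reductase AKR1C3 fell by 0.63 and DHRS13 by 0.37, and the photoreceptor transporter ABCA4 rose by 0.33 and the retinal reductase AKR1B10 by 0.39. AKR1B10 was close to the threshold (limma adjusted p = 0.049). With siControl replicate 3 left out, 7 rose and 3 fell (25.0% and 10.7%, beside 12.3% and 14.9% of all genes).

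Of 23 further receptor partners and cofactors 1 rose and 3 fell (4.35% and 13.0%, beside 3.15% and 4.17% of all genes). TBL1X and HDAC3, both subunits of the corepressor complex that NCOR1 builds, fell. TBL1X read 10.004, 9.99 and 10.04 in siTIG1 cells, against 11.08, 11.05 and 11.04 in siControl cells, and fell by 1.05 ± 0.05 (log2 difference, SE, limma adjusted p = 0.00080). HDAC3 fell by 0.44 ± 0.06 (log2 difference, SE, limma adjusted p = 0.012). Of other subunits of that complex, TBL1XR1 was at 0.13 and GPS2 at -0.25, and neither passed (limma adjusted p of 0.19 and 0.23). Among the receptors that pair with RXR, the vitamin D receptor VDR fell by 0.82 ± 0.07 (SE, limma adjusted p = 0.0031) and the thyroid hormone receptor THRB rose by 0.89 ± 0.08 (SE, limma adjusted p = 0.0043). Without siControl replicate 3, 2 of this list rose and 7 fell (8.70% and 30.4%, beside 12.3% and 14.9% of all genes).

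Of 21 measured genes known as retinoic acid targets, TIG1 among them, 2 rose and none fell (9.52%, beside 3.15% of all genes). The homeobox gene MEIS1 read 9.84, 9.95 and 9.88 in siTIG1 cells, against 8.84, 8.83 and 8.83 in siControl cells, and rose by 1.06 ± 0.05 (log2 difference, SE, limma adjusted p = 0.0011). The adhesion molecule ICAM1 rose by 0.48 ± 0.10 (log2 difference, SE, limma adjusted p = 0.037). Without siControl replicate 3, 9 of these target genes rose and 1 fell (42.9% and 4.76%, beside 12.3% and 14.9% of all genes). The median log2 difference was 0.08 over the target genes, beside 0.02 over all genes.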

How the data were processed

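RNA of 6 SUM149 samples, 3 labelled siTIG1 and 3 siControl in their titles, was hybridised as biotin-labelled cRNA to Affymetrix HG-U133 Plus arrays, per the labels' protocols. The authors deposited 1 log2 value per probe set and array, and the methods MAS5 and RMA, for neither of which a version or purpose is stated, appear in the submitters' processing notes. The log base is not written and was taken as 2 from the range of 4.28 to 15.59. Array medians of 7.87 to 7.90 show values normalized between arrays, which hides any change that most genes share, and no detection call or background estimate is given. Levels of different genes are not comparable, since each probe set has its own response. The number of arrays limits the precision.

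Of 54675 probe sets 62 were controls. Of the rest 41091 had 1 gene symbol, 1801 several and 11721 none. Symbols were checked through gene numbers against RefSeq GRCh38.p14 (19735 of 19775 genes found). Each gene was represented by its probe set with the highest mean. All genes were fitted together with limma 3.58.1 in R 4.3.3 (lmFit, eBayes, 2-sided, no block), and p-values were adjusted by Benjamini-Hochberg over 19775 genes with a threshold of 0.05. The fit was checked on simulated data. All retinoid genes are named. Of the other lists the genes past the threshold are named, and also RARRES1, CD14, TBL1XR1 and GPS2, which did not pass with all arrays. Genes and lists were chosen with earlier results of these data known. Alternatives were other normalizations, centring, a filter on dim genes, other choices of probe set, a trended robust fit, array weights, the replicate number as a block and each array left out.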

Additional observations from a re-analysis of the deposited data

How the results depend on the processing

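No called retinoid gene changed direction under any alternative. The 8 rises were 6 to 8 under quantile normalization, median centring, the filter on dim genes, other probe set choices and the trended robust fit, 12 with array weights, and 0 to 10 with 1 array left out; the 3 falls were 2 to 4, and 1 to 4 with 1 array left out. The labels do not say whether replicate numbers pair the samples. Deviations from the group mean correlated at -0.08, 0.02 and -0.04 between same-numbered arrays, and at -0.07 to 0.09 between others. With 3 arrays per group these values cannot settle pairing. With the replicate numbers as a block 1 retinoid gene rose, 2 fell and 238 genes were called in all (1.2%). The 1448 called genes became 5134 with array weights, which gave siControl replicate 3 a weight of 0.10, and 222 to 5375 with 1 array left out. Without siControl replicate 3 and siTIG1 replicate 1 together, chosen after seeing the data, 9 retinoid genes rose, 4 fell, 5453 genes were called and RARRES1 differed by -0.72 (limma adjusted p = 3.9e-05). With 1 array left out the RARRES1 difference ran from -1.09 to -0.46. The filter on dim genes kept 13842 genes, with 26 of the 33 retinoid genes among them. It left out LRAT and ALDH1A1 of the called genes, and RBP2, RBP7, RDH8, ALDH8A1 and RXRG of the others. The cause of the dependence on single arrays was not tested.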
